A study of Homo sapiens with 7 samples.

Results

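The histone mark H3K4me3 (histone H3 trimethylated at lysine 4) was compared between mutant KDM5A and the empty vector over 30820 of the 30840 listed regions of hg19. The 20 regions inside the KDM5A gene on chromosome 12 were left out, because they lie in the gene that was transfected. The comparison uses 2 of the 7 samples of the series, each a single chromatin immunoprecipitation and sequencing (ChIP-seq) library. Both came from HCT116, a human colon cancer line, carrying the genotype KDM5A-/- and kept in medium with G418. One culture was transfected with the empty vector and the other with mutant KDM5A, and both were harvested and fixed 24 h later. Another culture of the same knockout cells received wild-type KDM5A, and its library is given beside the mutant. All 3 therefore lack endogenous KDM5A, come from a single knockout line, and are compared with no library of the parental cells. Which amino acids differ in the mutant, and how much KDM5A protein the transfected cells held, is not given in the labels.

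H3K4me3 sits over the starts of active genes and over CpG-rich promoters that stand ready for use. It is written by the SET1 and MLL methyltransferase complexes and removed by the KDM5 demethylases, of which KDM5A is one. KDM5A carries a catalytic Jumonji domain, PHD fingers that bind the tail of histone H3, and an ARID domain that binds DNA. In many cells the promoters of developmental regulators carry low H3K4me3 together with the Polycomb mark H3K27me3, a state called bivalent, and such promoters often lie alone in long gene-poor stretches.

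Values are in RPM, reads of a region scaled to 1000000 reads of the library, so the level of a region grows with its width as well as with the mark. The libraries held 10713021 reads for the empty vector, 9906508 for the mutant and 10852411 for the wild type. With 1 library a side there is no replicate error and no test. Every interval given for a ratio is an exact 95% interval from the reads of the 2 libraries (Clopper-Pearson, conditional on their sum) and covers counting error only. A region was counted as lower or higher when it differed by 1.5-fold or more on the scale log2(RPM + 0.7), which understates the change of weak regions. As a check of the cell line, 5 of 9 epithelial and colon genes had a listed region at their start (EPCAM, CDH1, KRT8, KRT18 and CDX2). The other 4, CEACAM5, GPA33, KRT20 and VIL1, which mark differentiated intestinal cells, had no listed region there, and nor did PTPRC, CD3E, ALB, GFAP and RBFOX3, genes of other lineages.

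Promoter sequences are shown for 6 genes at which the mark was lower with the mutant (HUNK, WNT5A, LEF1, EYA4, BNC2 and TLE4) and for 2 strong promoters at the other end of the ranking (COA7 and EMP3). They are the 250 bases before the RefSeq start of each gene on GRCh38.p14, 5′ to 3′ on the gene's strand, and their positions are in that build and not in hg19. The windows were not mapped to hg19. A window, such as that of LEF1, may therefore belong to another start of its gene than the region measured. Capitals mark CCGCCC or its reverse complement GGGCGG. These letters are known as a binding sequence of the ARID domain of KDM5A, and they are also the core of the GC box bound by SP1.
HUNK (chr21:31872770-31873019, plus strand): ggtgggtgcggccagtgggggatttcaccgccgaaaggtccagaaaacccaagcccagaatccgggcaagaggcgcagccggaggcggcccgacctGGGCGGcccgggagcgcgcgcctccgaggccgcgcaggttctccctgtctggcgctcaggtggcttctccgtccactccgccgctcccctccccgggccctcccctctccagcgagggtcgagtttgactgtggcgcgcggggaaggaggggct
WNT5A (chr3:55487307-55487556, minus strand): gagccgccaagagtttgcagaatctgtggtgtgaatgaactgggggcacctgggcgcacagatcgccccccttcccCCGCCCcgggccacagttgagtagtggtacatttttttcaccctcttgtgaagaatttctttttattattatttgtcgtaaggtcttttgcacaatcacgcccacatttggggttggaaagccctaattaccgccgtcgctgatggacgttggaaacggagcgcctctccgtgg
LEF1 (chr4:108166302-108166551, minus strand): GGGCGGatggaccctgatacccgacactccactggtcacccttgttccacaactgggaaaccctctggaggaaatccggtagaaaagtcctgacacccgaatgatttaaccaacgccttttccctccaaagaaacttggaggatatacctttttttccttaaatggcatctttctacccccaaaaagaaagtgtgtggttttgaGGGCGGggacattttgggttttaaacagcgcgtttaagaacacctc
EYA4 (chr6:133241107-133241356, plus strand): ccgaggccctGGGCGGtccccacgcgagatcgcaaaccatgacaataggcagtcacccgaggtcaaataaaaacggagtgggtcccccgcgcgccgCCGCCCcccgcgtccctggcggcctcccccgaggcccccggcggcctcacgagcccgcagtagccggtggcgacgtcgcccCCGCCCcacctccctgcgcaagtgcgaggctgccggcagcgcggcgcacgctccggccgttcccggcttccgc
BNC2 (chr9:16870671-16870920, minus strand): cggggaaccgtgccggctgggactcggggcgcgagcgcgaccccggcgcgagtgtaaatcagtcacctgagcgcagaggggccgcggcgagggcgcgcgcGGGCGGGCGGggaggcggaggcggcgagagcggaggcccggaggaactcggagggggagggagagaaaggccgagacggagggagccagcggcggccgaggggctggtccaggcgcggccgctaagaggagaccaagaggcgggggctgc
TLE4 (chr9:79571715-79571964, plus strand): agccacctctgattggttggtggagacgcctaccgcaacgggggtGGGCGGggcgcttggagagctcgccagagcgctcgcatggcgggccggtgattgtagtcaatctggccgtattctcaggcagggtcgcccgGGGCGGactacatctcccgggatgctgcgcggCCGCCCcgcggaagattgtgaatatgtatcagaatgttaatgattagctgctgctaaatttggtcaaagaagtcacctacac
COA7 (chr1:52698348-52698597, minus strand): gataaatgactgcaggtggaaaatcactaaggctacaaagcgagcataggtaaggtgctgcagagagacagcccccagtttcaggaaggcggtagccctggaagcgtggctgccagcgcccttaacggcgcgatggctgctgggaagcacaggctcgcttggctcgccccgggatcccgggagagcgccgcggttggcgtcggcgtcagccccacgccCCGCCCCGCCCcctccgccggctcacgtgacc
EMP3 (chr19:48325302-48325551, plus strand): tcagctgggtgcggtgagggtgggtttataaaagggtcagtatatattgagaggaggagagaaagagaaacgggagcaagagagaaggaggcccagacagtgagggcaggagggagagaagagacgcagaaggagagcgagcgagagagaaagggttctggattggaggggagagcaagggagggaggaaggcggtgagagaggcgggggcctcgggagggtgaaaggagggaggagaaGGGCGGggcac

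Each of the 8 windows held the motif on one strand or the other, and so did many promoters that had no part in the comparison. The windows shown are a selection, so their all holding it is no result. Among the genes at the 25 lowest regions, 15 had a window in the RefSeq table and 11 of these (73.3%) held it. For the constitutively expressed genes the count was 12 of 17 (70.6%), against 56.0% of 15843 protein-coding promoters and 42.3% of all 27305. Of the genes at the 8 highest strong regions, 3 of 5 held it. CG dinucleotides had a median of 30 in 250 bases at the genes of the 25 lowest regions, with a wide range of 1 to 41. The median was 24 for the constitutive genes, 17 for protein-coding promoters and 8 for the genes at the highest strong regions. That last set ran from 4 to 23, with 9 at EMP3 and 23 at COA7. The genes at the 12 lowest strong regions, TLE4 among them, had a median of 23.5, and 5 of 8 of them (62.5%) held the motif, close to the constitutive genes. A match of letters is no evidence of binding.

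Over all regions 2512 were lower with the mutant (8.15%) and 2020 higher (6.55%), and most of both were weak regions. Of the 15687 weak regions, those with a mean of under 5 RPM, 13.7% were lower and 12.7% higher. The 15133 regions of 5 RPM or more were one-sided, with 362 lower (2.39%) and 21 higher (0.139%). This split follows the scale: lower regions were 94.5% of those counted at 5 RPM or more, but 51.5% when the libraries were scaled to a median ratio of 1, with 123 lower and 116 higher. Over all regions the same step moved the share from 55.4% to 31.3%. It moved the median log2 ratio of all regions by 0.22, from -0.18 to 0.035, and the values below are read against that offset.

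Regions were sorted into kinds by width and by the edge-to-edge distance to the next region of 1 kb or wider. Regions of 4 kb or wider are called broad and those under 1 kb narrow. The rest are promoter-sized, and are called lone with a distance of 100 kb or more, crowded within 10 kb and spaced otherwise. Narrow regions are called flanking within 5 kb, far from 100 kb on and between otherwise. Because a ratio and its counting noise follow the level, kinds were compared within weak, middle (5 to 20 RPM) and strong (20 RPM or more) regions. Regions of 1 library are not replicates, so the intervals on shares describe the counts of regions and not an error of the treatment.

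Among promoter-sized regions of middle level, the lone ones stood lowest. Of 594, 106 were lower (17.8%, Wilson 95% interval 15.0 to 21.1) and 0 higher, where 7.42% of all middle regions were lower and 0.498% higher. Their median log2 ratio was -0.28, with quartiles of -0.50 and -0.12. Crowded regions of the same level had a median of -0.14, and 56 of 1223 (4.58%) were lower. Spaced regions lay between them in the median, -0.19, with 113 of 1944 lower (5.81%). The difference in median log2 ratio between lone and crowded regions was -0.15, and the share of lower regions was 3.90 times as large among the lone. After scaling to a median ratio of 1, the median stayed below 0 for lone regions (-0.062) but turned to 0.037 for spaced, 0.083 for crowded and 0.21 for broad regions. The lower shares were then 10.1% of lone, 1.59% of spaced and 1.96% of crowded regions, and 11.1% of broad regions, which is 4 of 36 and above the lone share.

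**Figure D1:**
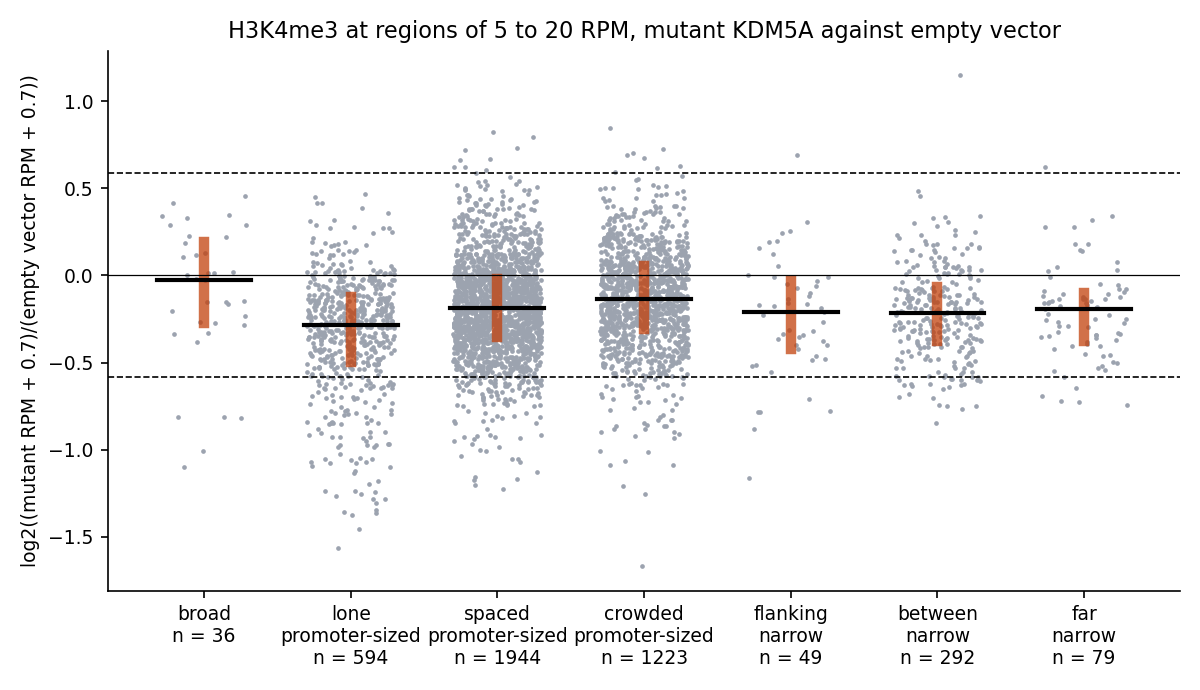
Log2 ratio of mutant to empty vector (vertical axis, with a pseudocount of 0.7 RPM) at the 4217 regions of 5 to 20 RPM, by kind of region. Each point is a region, the thick bar spans the quartiles, the black line is the median and the dashed lines mark 1.5-fold. The share of low values is largest among lone promoter-sized regions, 106 of 594 of which lie below the lower dashed line and 0 above the upper one. SALL1, the lowest named region, is a crowded one. Scaling to a median ratio of 1 turns the medians of spaced, crowded, broad and far regions above 0 and leaves that of lone regions below it. The medians of flanking and between regions then lie near 0, at 0.0027 and -0.00025.

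The summed mark over the lone middle regions changed by -20.7% (95% interval -21.5 to -19.9), against -13.9% (-14.4 to -13.3) over spaced and -11.1% (-11.8 to -10.4) over crowded regions. Among weak promoter-sized regions the contrast was wider. There the sum over lone regions changed by -25.7% and that over crowded regions by 1.05%, an interval of -0.45 to 2.57 that includes 0. Of the 478 weak lone regions, 183 were lower (38.3%) and 28 higher (5.86%), whereas 93 of 1048 weak crowded regions were lower (8.87%) and 101 higher (9.64%). Strong regions showed no such order. Lone, spaced, crowded and broad strong regions had medians of -0.24, -0.23, -0.25 and -0.26, and at most 0.657% of any of these kinds were lower, beside 0.449% of all strong regions and 0 higher. Broad regions were rarely of middle level, 36 of 1253, and of these 5 were lower (13.9%) while the median was -0.024.

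The lower values followed distance by steps over its whole range. Among middle promoter-sized regions the median log2 ratio was -0.14 within 10 kb of the next region, -0.18 at 10 to 30 kb, -0.20 at 30 to 100 kb, -0.26 at 100 to 300 kb and -0.33 from 300 kb to 1 Mb. The 26 regions more than 1 Mb from the next had a median of -0.91, and 19 of them were lower (73.1%, 53.9 to 86.3). These 26 were also wider and more thinly marked, with medians of 2591.5 bp and 3.17 RPM per kb. The nearer classes had medians of 1540 to 1684 bp and 5.55 to 6.75 RPM per kb. The separate parts of distance, width and density were not tested. Weak regions followed the same order from 30 kb on, with 12.4% lower at 30 to 100 kb, 31.2% at 100 to 300 kb, 50.4% from 300 kb to 1 Mb and 70.4% beyond. Strong regions stayed under 0.7% at every distance, with 0 of 22 lower beyond 1 Mb, for which the interval reaches 14.9%. The wild-type library showed the same direction at middle regions, with medians of -0.079 within 10 kb and -0.70 beyond 1 Mb. Both ratios divide by the one empty vector library, so the wild type is no independent support.

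Among lone regions the lower share also climbed with width. Among lone middle regions the share that was lower was 9.09% at 1 to 1.5 kb (22 of 242), 13.2% at 1.5 to 2 kb, 26.1% at 2 to 2.5 kb, 38.3% at 2.5 to 3 kb and 58.1% at 3 to 4 kb (18 of 31). Over the same widths it ran from 3.84% to 5.80% among crowded regions, with a highest value of 7.44%, and from 5.59% to 11.7% among spaced ones. The widest lone middle regions were also the most isolated, with a median distance of 444 kb at 3 to 4 kb against 173 kb at 1 to 1.5 kb. A wide region of middle RPM carries little mark per kb. Split by density, lone middle regions under 2.5 RPM per kb were lower in 21 of 29 cases (72.4%), and those of 7.5 RPM per kb or more in 12 of 241 (4.98%). Over all promoter-sized middle regions these shares were 26.2% and 3.57%. Their medians ran the other way, with a log2 ratio of -0.099 under 2.5 RPM per kb and -0.24 at 7.5 or more. High lower shares were thus found at lone promoter-sized regions that were wide or thinly marked. Within lone regions the share also followed the level, from 27.0% at 5 to 10 RPM to 0.598% at 20 to 40 RPM. Narrow middle regions did not follow isolation, with 12.2% of flanking, 7.53% of between and 6.33% of far ones lower.

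**Figure D2:**
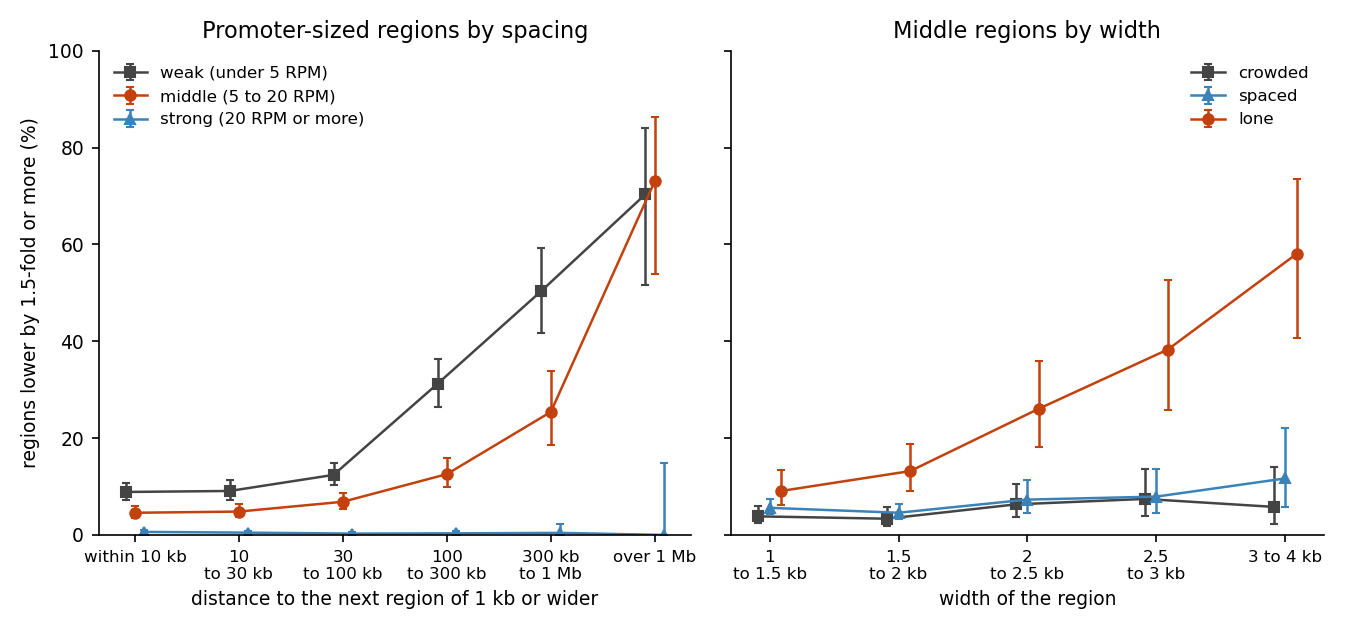
Percentage of regions lower by 1.5-fold or more with mutant KDM5A than with the empty vector, against the distance to the next region of 1 kb or wider (left, promoter-sized regions by level) and against width (right, middle regions by spacing). Points are shares and bars are Wilson 95% intervals over regions of 1 library a side. The middle line climbs from 4.58% to 73.1% with distance while the strong line stays under 0.7%, and of the lines by width the lone one climbs from 9.09% to 58.1%.

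Lone regions made up 111 of the 362 lower regions of 5 RPM or more (30.7%), but 13.6% of all regions of that level. Spaced regions supplied 135 (37.3%) and crowded ones 70 (19.3%). Among the 21 higher regions 0 were lone and 0 broad, 10 were spaced, 8 crowded and the other 3 narrow.

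Of the 25 regions with the lowest log2 ratios, 16 were lone. A known gene start lay in or within 1 kb of 24 of them, and the other lay within EXD3. Each was counted as lower, as the ranking requires, by 2.44-fold to 3.51-fold. Their widths ran from 898 to 3935 bp with a median of 2417 bp, and their distances to the next region from 1.67 to 1894 kb with a median of 219 kb. The empty vector values ran from 7.37 to 16.1 RPM with a median of 9.71, and the mutant values from 2.62 to 6.36 RPM with a median of 3.73. The ranking and the floor on the mean level make a gap between these ranges likely, so it is no separate result. The wild-type values ran from 1.75 to 9.68 RPM and lay below the empty vector in 25 of 25, a count that the shared control makes likely.

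Of the transcription factors among them, SALL1, a zinc-finger factor of kidney and limb development, had the lowest ratio of all. Its region at chr16:51183386-51187250 held 15.96 RPM with the empty vector, 7.46 with the wild type and 4.54 with the mutant, which was 3.51-fold lower (2.52 to 5.00). SALL1 is a crowded promoter, with its next region 1.67 kb away. LHX8, a LIM homeobox factor of the forebrain, held 8.96 RPM with the empty vector, 2.86 with the wild type and 3.03 with the mutant at chr1:75600267-75603026, 2.96-fold lower with the mutant (1.95 to 4.62). EN1, a homeobox factor of the midbrain and hindbrain, had 12.2 RPM with the empty vector, 5.16 with the wild type and 4.34 with the mutant at chr2:119602107-119605891, 2.82-fold lower (1.98 to 4.07). Both forms of KDM5A lay well under the empty vector at these 3 starts. POU4F1, a POU factor of sensory neurons, held 10.2, 4.52 and 4.14 RPM in the order empty vector, wild type and mutant. BNC2, a zinc-finger protein, was 2.71-fold lower with the mutant (1.74 to 4.32), and EYA4, a transcriptional coactivator and phosphatase of inner ear development, was 2.54-fold lower (1.89 to 3.44).

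Among signalling genes, WNT5A, a ligand of the non-canonical Wnt pathway, stands 979 kb from its next region at chr3:55519408-55522435. It held 10.9 RPM with the empty vector, 5.71 with the wild type and 3.53 with the mutant, 3.09-fold lower (2.10 to 4.65). LEF1, a partner of beta-catenin at Wnt target genes, held 7.84, 4.52 and 2.62 RPM at chr4:109087854-109090334 in that order, 2.99-fold lower with the mutant (1.90 to 4.83). The mutant value was the lowest of the 3 at both Wnt genes, and the wild type stood between. HUNK, a serine/threonine kinase, had the second lowest ratio, with 15.1, 9.68 and 4.64 RPM at chr21:33244760-33246880, 3.26-fold lower (2.33 to 4.62). EPHA7, a receptor for ephrins, is the most isolated of the set, 1894 kb from its next region, and held 14.3, 6.91 and 5.45 RPM. PDE10A, a phosphodiesterase of cyclic nucleotides, held 15.2, 7.93 and 5.55 RPM.

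Among genes of adhesion and membrane proteins, PCDH10, a protocadherin of the nervous system, held 8.77 RPM with the empty vector, 1.75 with the wild type and 3.13 with the mutant at chr4:134071343-134074323, which was 2.80-fold lower (1.85 to 4.36). Here the wild type and not the mutant had the lowest value. At LHX8 the wild type (2.86 RPM) and the mutant (3.03 RPM) lay too close for an order to be read. SDK2 and CADM1, both adhesion molecules of the immunoglobulin superfamily, were 2.72-fold and 2.53-fold lower with the mutant, and JAM2, of the same superfamily and found at tight junctions, was 2.44-fold lower. VLDLR, a receptor for lipoproteins and reelin, and KCNJ4, a potassium channel, were 2.71-fold and 2.58-fold lower. Further members were KLHL14, SCARF2, GALNT13 and GALNT16 (enzymes that start O-linked glycans), CBS (an enzyme that turns homocysteine into cystathionine), the long non-coding RNA LINC00649 and the region within EXD3, at 2.48-fold to 2.71-fold lower.

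**Figure D3:**
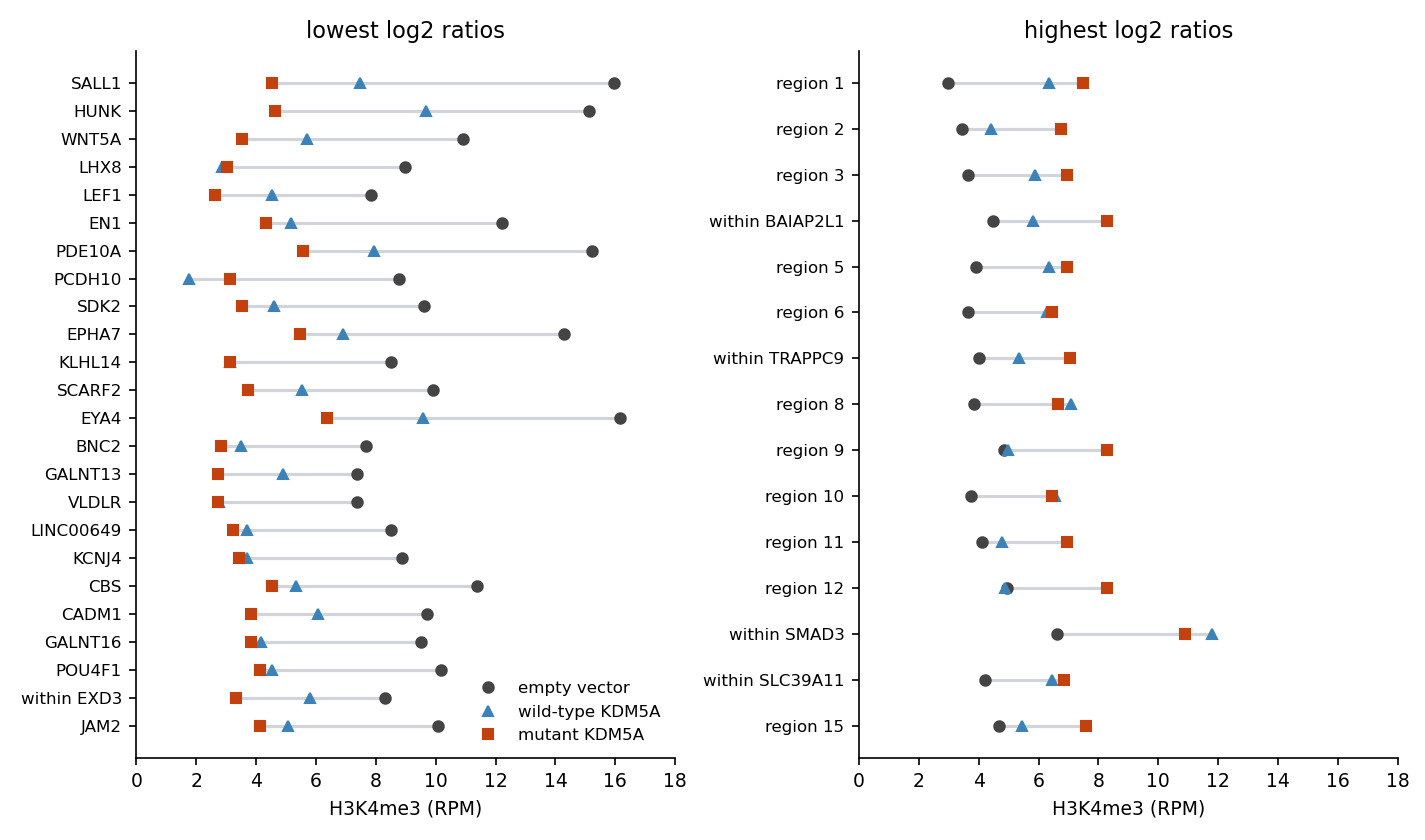
H3K4me3 in RPM (horizontal axes) in the empty vector (circles), wild-type (triangles) and mutant (squares) libraries at regions with the lowest (24 of the 25 are drawn) and the 15 with the highest log2 ratio of mutant to empty vector among regions of 5 RPM or more. Rows are ordered by that ratio, named by the gene start they hold or the gene they lie in, and numbered where no gene was placed. The mutant values on the left lie at 2.62 to 6.36 RPM and the empty vector values at 7.37 to 16.1 RPM, and on the right the order is turned, with 2.99 to 6.63 RPM for the empty vector and 6.46 to 10.9 RPM for the mutant. The ranking fixes the direction on each side.

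At the 15 highest regions no gene start was placed, among the 144 genes whose starts were looked up with earlier results of these data known, so this is no contrast with the lowest 25. Of the 15, 4 lay inside known genes (BAIAP2L1, TRAPPC9, SMAD3 and SLC39A11), and 0 were lone promoter-sized. The empty vector values were 2.99 to 6.63 RPM and the mutant values 6.46 to 10.9 RPM, 1.62 to 2.501 times as high. The highest ratio was at a region of 448 bp at chr2:33141308-33141755, with 2.99 RPM with the empty vector, 6.36 with the wild type and 7.47 with the mutant, a ratio of 2.501 (1.63 to 3.91). No list of artefact-prone regions was applied to it or to any other region. Inside SMAD3, which encodes a mediator of TGF-beta signalling, the region at chr15:67417242-67419397 held 6.63, 11.8 and 10.9 RPM in the same order, a ratio of 1.65 (1.21 to 2.25). Inside BAIAP2L1, which encodes an adaptor between membrane and actin, the mutant was 1.85 times the empty vector (1.28 to 2.70), with 4.48, 5.81 and 8.28 RPM. The wild type lay above the empty vector in 14 of the 15, a count that the shared control makes likely. Over these regions the median distance to the next region was 16.8 kb, against 219 kb for the lowest 25.

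Strong promoters differed less, and the 12 lowest of them were 1.59-fold to 2.12-fold lower. TLE4, a Groucho co-repressor that acts with LEF1 and its relatives, was the lowest. Its lone promoter at chr9:82185140-82189116 held 37.1 RPM with the empty vector, 19.4 with the wild type and 17.46 with the mutant, 2.12-fold lower (1.77 to 2.55). EN2, a homeobox factor related to EN1, held 36.8, 23.3 and 22.1 RPM in that order, 1.66-fold lower with the mutant (1.41 to 1.97). PAX6, a regulator of eye and pancreas development, held 40.4, 37.4 and 25.0 RPM, 1.61-fold lower (1.38 to 1.89). ATOH8, a basic helix-loop-helix factor, held 34.4, 30.3 and 20.6 RPM, 1.67-fold lower (1.41 to 1.99). At PAX6 and ATOH8 the wild type lay nearer to the empty vector than to the mutant, unlike at TLE4 and EN2. These regions were picked by the mutant ratio, so this contrast of the forms is no separate result. ADAMTS1, a secreted metalloprotease, had 30.8, 18.4 and 17.8 RPM, 1.73-fold lower with the mutant (1.44 to 2.09). SLC1A4, a transporter of neutral amino acids, SUSD1, and the shared start of CETN2 and NSDHL (a centrin and an enzyme of cholesterol synthesis) were 1.62-fold to 1.69-fold lower. The remaining 4 were regions within AGAP1 and SAMD11 and regions at chr17:37773687-37775334 and chr9:99774786-99776564, to which no gene was placed.

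No strong region was counted as higher. The 8 strong regions with the highest ratios stood at 1.15 to 1.26, and the interval of 5 of them excluded 1. At the start shared by MMRN2 and SNCG (an extracellular matrix protein and gamma-synuclein), chr10:88717949-88720874, the values were 20.6 RPM with the empty vector, 22.8 with the wild type and 25.9 with the mutant, a ratio of 1.26 (1.05 to 1.51). COA7, a mitochondrial protein needed for cytochrome c oxidase, held 32.4, 36.6 and 39.0 RPM, a ratio of 1.203 (1.04 to 1.40). EMP3, a small membrane protein, and LAMB3, a laminin chain of epithelial basement membrane, had ratios of 1.16 (0.955 to 1.41) and 1.15 (0.970 to 1.36), both intervals including 1. Narrow regions at chr7:61968847-61969595 and chr1:121484481-121485439, beside centromeres, also stood among the 8.

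Within the broad kind low values were found at TBX2 and TMEM132E. TBX2, a T-box factor, held 14.2 RPM with the empty vector, 6.27 with the wild type and 6.26 with the mutant, 2.27-fold lower (1.68 to 3.10). TMEM132E held 15.3, 7.93 and 7.27 RPM in that order, 2.11-fold lower (1.59 to 2.82). Both forms of KDM5A were far below the empty vector at these starts. The highest broad region lay within ZMYND8, which encodes a chromatin reader, with a ratio of 1.39 (1.12 to 1.72). Among narrow regions of middle level, the lowest was the one within EXD3, 2.49-fold lower, which is a larger fold than at TBX2. The next flanking region, at chr16:21294898-21295660, was 2.02-fold lower (1.32 to 3.15). SPEF1, a gene of cilia and sperm flagella, was 1.82-fold lower (1.30 to 2.57), and the lowest far region, at chr10:45745001-45745954, 1.78-fold lower (1.21 to 2.65).

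The mark was lower over 3 or more neighbouring regions in a row at 5 loci, of which 1 had a mean of 5 RPM or more. There, around POU3F3, a POU-domain factor of brain and kidney development, 4 consecutive regions between 105458799 and 105489922 on chromosome 2 were each lower. The POU3F3 start itself held 10.2 RPM with the empty vector, 3.59 with the wild type and 5.05 with the mutant, 2.02-fold lower (1.43 to 2.88). The region farthest downstream held 4.76, 2.30 and 1.41 RPM, 3.37-fold lower (1.84 to 6.59). Summed over the 4, the values were 30.3, 14.3 and 14.03 RPM, 2.16-fold lower with the mutant (1.77 to 2.66), so the forms of KDM5A gave nearly the same sum although their order differed from region to region.

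Among 37 developmental transcription factors, 30 had a listed region at their start. Of these 10 were lower (33.3%, where 2.39% of all regions of 5 RPM or more were) and 0 higher, with a median log2 ratio of -0.42 against -0.18 for all regions. The lower ones were mostly of middle level, 8 of 11, against 2 of 17 strong ones, beside 7.42% of all middle and 0.449% of all strong regions. Besides those described, MEIS1, a TALE homeobox factor, held 9.99 RPM with the empty vector, 4.15 with the wild type and 4.64 with the mutant, 2.15-fold lower. SOX2, a factor of pluripotent and neural stem cells, held 10.7, 7.37 and 5.65 RPM, 1.90-fold lower. Some of the listed factors known to act in intestinal epithelium carried strong marks, whereas HNF4A and FOXA2 had no listed region at their start. CDX2 held 79.9, 66.3 and 59.0 RPM, SOX9 held 122, 101 and 102 RPM, GATA6 held 98.0, 82.2 and 72.7 RPM and KLF5 held 72.5, 62.8 and 56.1 RPM, and none of these 4 was lower by 1.5-fold, where 0.449% of all strong regions were. With log2 ratios of -0.43, CDX2 and GATA6 lay below the lower quartile of strong regions, -0.32. PAX9 and SALL3, both weak, had log2 ratios above 0, 0.19 and 0.29, and their ratio intervals included 1. After scaling to a median ratio of 1, 8 members were lower and 4 stood above 0, with a median of -0.19.

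Of 35 developmental signalling genes 33 were placed, and 6 were lower (18.2%, beside 2.39% of all regions of 5 RPM or more) and 0 higher, with a median of -0.39. By level these were 4 of 6 middle, 1 of 26 strong and the only weak one, where 7.42% of all middle, 0.449% of all strong and 13.7% of all weak regions were lower. The 6 were the ligands WNT5A, TGFB2 and BMP2, the nuclear factors LEF1 and GLI3, and the co-repressor TLE4. TGFB2 held 12.7 RPM with the empty vector, 9.68 with the wild type and 7.27 with the mutant, a ratio of 0.573 (0.424 to 0.767). BMP2 held 3.08, 1.11 and 1.31 RPM, a ratio of 0.426 (0.206 to 0.831). GLI3, which carries Hedgehog signals to the genome, held 6.81, 4.70 and 4.14 RPM, a ratio of 0.607 (0.404 to 0.902). The other 27 had ratios from 0.663 at BMP7 to 0.879 at ID3. LGR5, a marker of intestinal stem cells, had 0.703 (0.559 to 0.881), NOTCH1 0.773 (0.695 to 0.861), AXIN2 0.763 (0.691 to 0.841) and PTCH1 0.822 (0.766 to 0.882). After scaling to a median ratio of 1, 4 were lower and 2 stood above 0.

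All 21 constitutively expressed genes were placed, all were strong and 0 were lower or higher. With 0.449% of all strong regions lower and 0 higher, that count says nothing particular about these genes. Their log2 ratios ran from -0.38 at PGK1 to -0.063 at TUBA1B with a median of -0.19, above the median of -0.24 of all strong regions. All 21 were below 0 as deposited, but 17 stood above 0 after scaling to a median ratio of 1, so no direction of their own is given. ACTB held 75.05, 71.8 and 64.7 RPM in the order empty vector, wild type and mutant, GAPDH 105, 88.6 and 88.1 RPM, and B2M 73.9, 62.9 and 70.3 RPM. Lists and members were chosen with results of these data known, so these counts describe the genes and are no test of a direction.

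**Figure D4:**
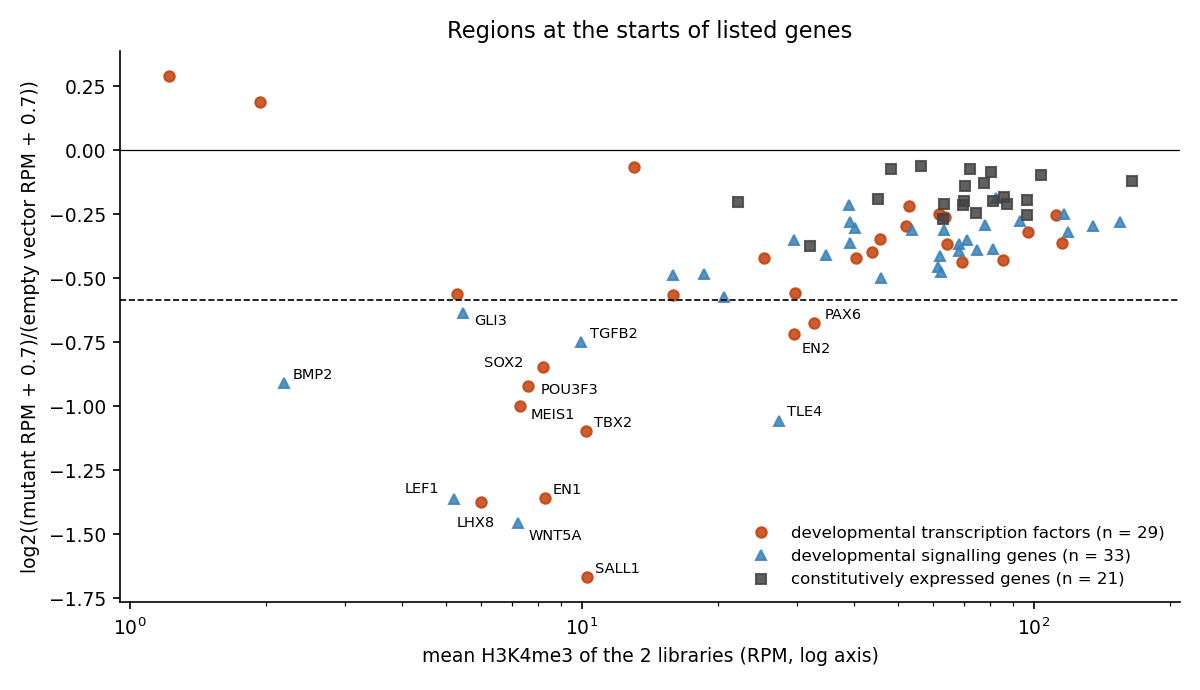
Log2 ratio of mutant to empty vector (vertical axis) against the mean RPM of the 2 libraries (horizontal log axis) at the starts of developmental transcription factors (circles, 29 of the 30 placed), developmental signalling genes (triangles, n = 33) and constitutively expressed genes (squares, n = 21). The dashed line marks 1.5-fold lower, and the 15 named genes lie below it. The squares lie between -0.38 and -0.063, and 17 of the 21 turn above 0 when the libraries are scaled to a median ratio of 1.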

How the data were processed

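H3K4me3 ChIP-seq libraries of 3 transfections of HCT116 KDM5A-/- cells were used. Per the submitters' processing notes, the tools named were HOMER, MACS, MACS2, deepTools 3.5.6 and Bowtie2 2.5.4, on hg19. How peaks were called and reads were counted is not given in the sources used here. Deposited by the authors was 1 table of regions with the RPM of each library. A header naming H3K4me4 was read as H3K4me3, the mark in the labels. The libraries of input and of IgG were not analysed here, values carry no background correction, and RPM holds no outside standard of amount. The values of a library were whole multiples of 1 step (0.0933, 0.0921 and 0.101 RPM for empty vector, wild type and mutant, within 0.02 reads), which gave the reads behind the intervals. Where 0 reads were counted, the upper limit is 3 reads (0.280, 0.276 and 0.303 RPM). PCR copies are not independent molecules.

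From these values log2 ratios with a pseudocount of 0.7 RPM, plain ratios, kinds of region and level classes were computed, in Python 3.11.15 with scipy 1.17.1, pandas 2.3.3, numpy 2.4.6, matplotlib 3.10.9 and statsmodels 0.14.6. The scripts were tested on simulated data. Named were the 25 lowest and 15 highest log2 ratios of regions of 5 RPM or more, the 12 lowest and 8 highest of 20 RPM or more, the 3 lowest and 2 highest of each kind, regions of runs (3 or more neighbours within 50 kb, all past 1.5-fold in 1 direction, averaging 5 RPM or more) and the listed genes, without chromosome Y. No hg19 annotation was used. Genes were placed from known hg19 starts, in or within 1 kb of a region, of 144 genes. All 144 are in the RefSeq table of GRCh38.p14 on the same chromosome, and 121 of 121 neighbouring pairs keep their order there. Some named members are not reported here. Genes holding a region inside them were looked up after the values were seen. A region with no name may still hold a gene start. Members and lists were chosen with earlier results of these data known. Alternatives were other pseudocounts, scalings, thresholds, levels, widths and spacings, a trend on level removed, and autosomes only.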

Additional observations from a re-analysis of the deposited data

How the results depend on the processing

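No paired analysis was possible because each group has 1 library and no result comes from a test. For the same reason no library could be left out. Among middle regions the lone share of lower regions stayed above the spaced and crowded ones under each alternative run, while spaced and crowded regions changed places with a pseudocount of 3.5 RPM, under both scalings and with the trend removed. The lone share of 17.8% was 10.1% with a pseudocount of 3.5 RPM, with scaling to a median ratio of 1 and with scaling to equal sums, 11.6% with the trend on level removed, and 26.0% and 12.7% with spacing limits doubled and halved. Crowded regions, at 4.58%, gave 6.46% with a pseudocount of 0.07 RPM, 2.04% with 3.5 RPM, 1.96% under either scaling and 2.53% with the trend removed. Spaced regions, at 5.81%, gave 7.97%, 1.54%, 1.59% and 1.90% under the same settings, and 7.48% with spacing limits doubled. With limits halved, the lone minus crowded difference in medians was -0.089 in place of -0.15.

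The counts of lower and higher regions moved more. Over all regions they were 3998 and 3561 with a pseudocount of 0.07 RPM, 298 and 16 with 3.5 RPM, 1547 and 3394 scaled to the median, 1553 and 3337 scaled to equal sums, 549 and 343 at 2-fold, and 391 and 33 among regions at or above the median level. At 5 RPM or more, where 362 and 21 were counted, they were 136 and 1 with 3.5 RPM, 123 and 116 scaled to the median, 124 and 115 scaled to equal sums, 156 and 63 with the trend removed, and 53 and 1 at 2-fold. Of the 15133 regions of that level, an exact interval that excludes 1 was found for 8577 lower and 72 higher. It was set against a ratio of 1 without scaling, while the median ratio of these regions was 0.849. That count therefore includes the offset between the libraries and is no count of regions changed one by one. Lower runs numbered 1 with 3.5 RPM and 3 under either scaling and with the trend removed, in place of 5, and higher runs 0 with 3.5 RPM and 6 under either scaling, in place of 2. The cause was not tested. Of 359 values of 60 named regions under the alternatives 0 changed direction and 34 moved by more than their counting interval. Named regions were mostly picked as extremes of the log2 ratio, which made a lack of reversals likely in advance. Counts of weak regions are limited by depth.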

Other observations

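The other runs of neighbouring regions were too weak on average for the rule on names, and their genes were placed after the values were seen. All 3 regions between DLX6 and DLX5, homeobox genes of limb and forebrain, were lower, with sums of 13.7 RPM with the empty vector, 6.17 with the wild type and 7.57 with the mutant, 1.81-fold lower with the mutant (1.36 to 2.43). Around GATA4, a zinc-finger factor of heart and gut, the sums of 3 regions were 17.4, 9.86 and 7.97 RPM, 2.18-fold lower (1.66 to 2.87). The GATA4 start alone held 6.07, 3.13 and 1.82 RPM, 3.34-fold lower (1.96 to 5.98). Around HOXC4 on chromosome 12, 3 regions between 54431824 and 54476355 summed to 16.2, 7.74 and 7.27 RPM, 2.23-fold lower (1.69 to 2.98). The fifth lower run, with no gene placed, lies on chromosome 12 from 133463723 to 133533358, and its sum was 2.55-fold lower (1.70 to 3.92). Runs of higher regions were 2, both of weak regions and with no gene placed, on chromosome 2 from 236233840 and on chromosome 10 from 101723552, with summed ratios of 2.24 (1.40 to 3.65) and 2.07 (1.35 to 3.23).

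By chromosome, the share of regions of 5 RPM or more that were lower was 6.04% on chromosome 21 (9 of 149, Wilson 95% interval 3.21 to 11.1), 5.17% on chromosome 13, 4.72% on chromosome 18 and 4.05% on the X, and 1.30% on chromosome 15 and 1.33% on chromosome 17. Lone regions were 15.6% of promoter-sized regions of that level on chromosome 21, 23.05% on 13, 25.4% on 18, 33.3% on the X, 15.5% on 15 and 4.73% on 17. Chromosome 4 had a high lone share, 31.9%, with 1.80% of regions lower (10 of 555), below the 2.39% of all regions of that level. The part of spacing in the order of chromosomes was not tested.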
